A study of Saccharomyces cerevisiae x Saccharomyces kudriavzevii and Saccharomyces cerevisiae with 12 samples.

Results

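The genes considered here are the 5 flocculin genes FLO1 (YAR050W), FLO5 (YHR211W), FLO9 (YAL063C), FLO10 (YKR102W) and FLO11 (YIR019C) and the gene of their activator FLO8 (YER109C). They were taken by systematic name from the 6178 open reading frames (ORFs) of the array, and all 6 were on it. The study compared the wine yeast hybrids Lalvin W27 and VIN7, both S. cerevisiae × S. kudriavzevii, with the commercial wine strain S. cerevisiae Lalvin T73 in fermentations of Tempranillo must. Cells were taken at the beginning of the stationary phase at 12 and at 28 °C, and each hybrid and temperature had 3 arrays, called A, B and C. On every array the cDNA of a hybrid carried Cy3 and that of T73, fermented at the same temperature, carried Cy5, with no dye swap. Both hybrids are allotriploid, and the study describes chromosomes V and IX of Lalvin W27, which hold FLO8 and FLO11, as chimeric. Each hybrid is 1 commercial strain, the arrays carried PCR-amplified ORFs of the laboratory strain S288c, and alleles of the parents were not told apart.

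Flocculins are proteins of the yeast cell wall. Those encoded by FLO1, FLO5 and FLO9 bind mannose chains on neighbouring cells, so that cells clump and settle out of the wine, and FLO10 encodes a relative that can also make cells stick. FLO11 encodes a surface protein needed for invasive growth and for biofilms such as the velum on sherry, and Flo8 is a transcription factor of the cAMP-PKA pathway that switches on FLO1 and FLO11. S288c carries a nonsense mutation in FLO8 and does not flocculate, whereas some wine strains do. FLO1, FLO5 and FLO9 are close copies of each other, so cDNA of one may bind the spots of the others, and a value for any of them may hold signal of all. The ratio can also hold differences in gene number between the strains, because a change in copies and a change in RNA per copy cannot be told apart here.

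The values are log2 ratios of hybrid over T73, where 1 is a 2-fold difference. The deposited ratio likely has T73 on top, judged from the dye labels and from the direction the study states for YMR210W and YIR007W (medians of 1.60 and -1.49 as deposited), so the sign of all values was turned. The share of values past 2-fold ran from 8.84 to 49.4% between arrays and the SD of all values from 0.60 to 1.59, so a ratio of the same size does not weigh the same on each array. The medians of the arrays lay between -0.14 and 0.30. Between arrays of 1 group at 12 °C, Pearson's r ran from 0.25 to 0.59 for Lalvin W27 and from 0.22 to 0.54 for VIN7. At 28 °C it ran from 0.10 to 0.25 and from 0.06 to 0.17. Arrays B and C of Lalvin W27 at 12 °C had higher r with array A of VIN7 (0.64 and 0.74) than with their own array A (0.25 and 0.30). Array C of VIN7 at 28 °C correlated at -0.70 to -0.38 with 4 arrays of the 12 °C groups, the only 4 of 66 pairs under -0.3. With arrays A and B of its own group it had r of 0.06 each, so those pairs do not settle its direction. Its direction was kept, and the VIN7 results at 28 °C that this array decides are also given with its sign turned.

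At 12 °C the ratios of FLO1 and FLO9 were the highest of the 6 genes in Lalvin W27, with medians 3.47-fold and 3.59-fold over T73. FLO11 had the lowest, with a median 2.07-fold below T73. No median of VIN7 reached 2-fold at either temperature, but at 28 °C this rests on all 3 arrays as they stand, since 3 medians reached it with array C turned and 1 or 2 with any array left out. The median of FLO5 in Lalvin W27 at 28 °C was the one to reach it, at 2.01-fold over T73. By limma, which fits all ORFs at once, none of these ratios differed from 0 after Benjamini-Hochberg adjustment over all ORFs.

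FLO1 encodes the flocculin with the strongest effect on clumping in laboratory strains. In Lalvin W27 at 12 °C its log2 ratios were 1.48, 1.80 and 2.80 on arrays A, B and C. All 3 lay above 0, at percentiles 91.4 to 99.0 of the values on the same arrays. The mean was 2.02 ± 0.69 (SD, n = 3), with a limma 95% interval of 0.52 to 3.53 and an adjusted p of 0.315. At the same temperature VIN7 gave 1.66 on array A, no value on B and -0.60 on C, so the 2 values had opposite signs. At 28 °C the Lalvin W27 ratios were -0.21, -0.45 and 3.24, where only array C lay above 0. The mean of 0.86 ± 2.06 (SD, n = 3) thus rests on array C, and without it the mean was -0.33. The VIN7 ratios at 28 °C were -0.57, -0.91 and -2.62, all below 0. Their mean was -1.37 ± 1.10 (SD, n = 3, limma adjusted p = 0.385), and with the sign of array C turned it became 0.38.

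FLO9 encodes another mannose-binding flocculin. Its log2 ratios in Lalvin W27 at 12 °C were 1.04, 2.28 and 1.84, all above 2-fold and at percentiles 93.8 to 96.4 of their arrays. The mean was 1.72 ± 0.63 (SD, n = 3), with a limma 95% interval of 0.32 to 3.12 and an adjusted p of 0.321. VIN7 at 12 °C gave 1.58, -1.09 and -0.65, with only array A above 0. At 28 °C Lalvin W27 gave 0.60, 0.83 and 0.26. FLO9 was thus above T73 on 6 of 6 arrays of Lalvin W27, and no other member was. VIN7 at 28 °C gave 0.67, 2.15 and -1.94, on both sides of 0. The mean there was 0.29 ± 2.07 (SD, n = 3), and it moved to 1.59 with array C turned and to 1.41 without it.

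FLO5 encodes the flocculin closest to that of FLO1. For Lalvin W27 at 12 °C its log2 ratios were 0.65, 0.36 and 0.75, all above 0 and none past 2-fold. Those of VIN7 at 12 °C were -0.18, -0.61 and 0.48. The signs were mixed there, as they were in Lalvin W27 at 28 °C, with 1.01, -0.52 and 1.18. The median of 1.01 in that group fell to 0.24 without array C and to 0.93 once each array was centred on its own median. VIN7 at 28 °C gave 0.15, -0.07 and 0.08, the narrowest spread of any member in any group (mean 0.05 ± 0.11, SD, n = 3).

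FLO10 encodes a flocculin that laboratory strains keep silent. Its log2 ratios in Lalvin W27 were 0.03, 0.26 and 1.00 at 12 °C. At 28 °C they were -0.59, -0.04 and -0.36, so every array lay above T73 at the lower temperature and below it at the higher one. VIN7 gave 0.68, -0.58 and 0.09 at 12 °C, with signs on both sides of 0. At 28 °C it gave -0.12, -0.93 and -0.48, all below 0, and the mean of -0.51 became -0.19 with array C turned. No median of FLO10 reached 2-fold, and the limma adjusted p against T73 ran from 0.542 to 0.937.

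FLO11, the adhesin of invasive growth, gave log2 ratios of 0.16, -1.78 and -1.05 in Lalvin W27 at 12 °C. Arrays B and C lay more than 2-fold below T73 and array A just above it. The mean was -0.89 ± 0.98 (SD, n = 3, limma adjusted p = 0.409), and the median of -1.05 became -0.45 without array B and -0.91 with the arrays centred. VIN7 at 12 °C gave -0.31, -0.07 and 0.03, close to 0 on all arrays. At 28 °C Lalvin W27 gave 0.67, -1.07 and -0.79, again with array A alone above 0. VIN7 at 28 °C gave -0.59, -1.53 and 1.04, with array C alone above 0. With the sign of that array turned FLO11 was below T73 on all 3 arrays, and the mean went from -0.36 to -1.05 and the median to -1.04, or 2.06-fold below T73.

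FLO8, the activator, gave log2 ratios of -0.70, 0.83 and 0.11 in Lalvin W27 at 12 °C, with a mean near 0 (0.08 ± 0.77, SD, n = 3). Those of VIN7 at 12 °C were -0.13, -0.06 and -0.52, all below 0 and none past 2-fold. At 28 °C the Lalvin W27 ratios were -0.01, 1.46 and 0.37, and only array B passed 2-fold. VIN7 at 28 °C gave -0.31, 1.07 and -1.997, and its mean of -0.41 ± 1.54 (SD, n = 3) became 0.92 with array C turned.

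**Figure D1:**
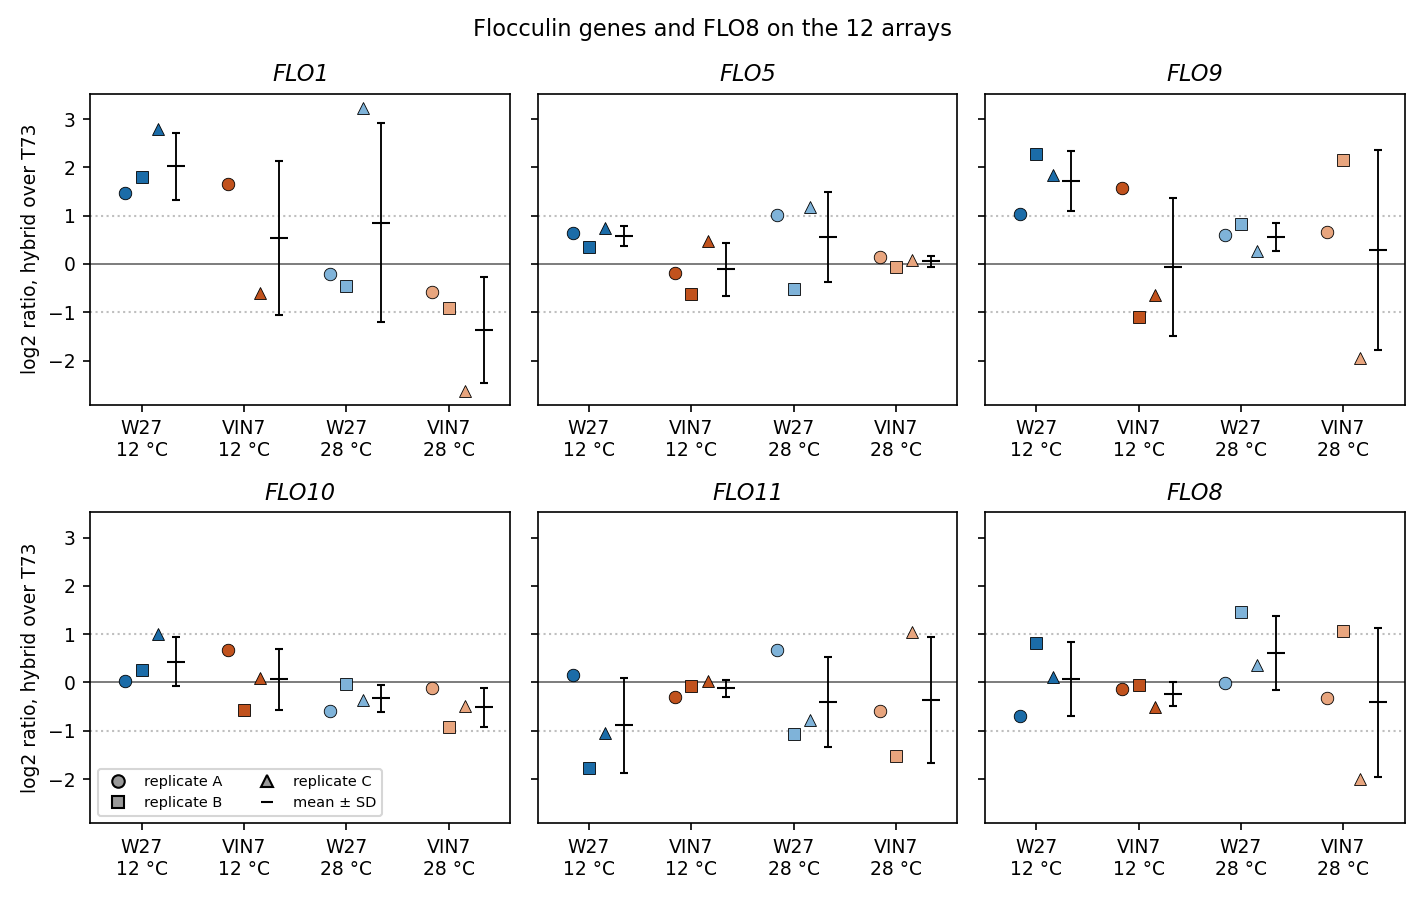
Log2 ratio of hybrid over T73 (y axis) of each gene on every array, by hybrid and temperature (x axis), with the mean and SD of each group at its right and dotted lines at 2-fold. FLO1 and FLO9 lie above 1 on all arrays of Lalvin W27 at 12 °C, while most other groups lie on both sides of 0; FLO1 has no value on array B of VIN7 at 12 °C.

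The counts of members past 2-fold were set against those of all ORFs. Of the Lalvin W27 medians at 12 °C, 2 of 6 were past 2-fold above T73, where 10.6% of ORFs were, and 1 of 6 below it, where 11.2% were. For Lalvin W27 at 28 °C the counts were 1 of 6 above and 0 below, beside 7.76 and 6.08% of ORFs. In VIN7 they were 0 of 6 in both directions, beside 13.9% above and 11.9% below at 12 °C and 11.3% above and 5.48% below at 28 °C. With array C turned, 2 of 6 medians of VIN7 at 28 °C were past 2-fold above T73 and 1 below, beside 439 and 364 of 6169 ORFs. The median over the 6 members' medians was 0.46 in Lalvin W27 at 12 °C, where that of all ORFs was -0.06, and -0.40 in VIN7 at 28 °C, where that of all ORFs was 0.10. The latter became -0.10 beside 0.04 with array C of VIN7 at 28 °C turned. In the other groups it was -0.10 beside 0.00 for VIN7 at 12 °C and 0.08 beside 0.08 for Lalvin W27 at 28 °C.

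Counting the sign on all 3 arrays, 4 of 6 members (FLO1, FLO5, FLO9 and FLO10) were higher than in T73 in Lalvin W27 at 12 °C and 0 were lower, while 21.9 and 25.1% of ORFs were. For VIN7 at 12 °C, 0 of 5 members with 3 values were higher and 1 (FLO8) was lower, beside 21.4 and 21.8%. For Lalvin W27 at 28 °C, 1 member (FLO9) was higher and 1 (FLO10) lower, beside 19.0 and 14.6%. In VIN7 at 28 °C, 0 were higher and 2 (FLO1 and FLO10) lower, beside 19.9 and 13.3%. With array C turned, 1 member (FLO9) was higher and 1 (FLO11) lower there, beside 12.6 and 12.5% of ORFs.

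The limma test with an adjusted p under 0.05 called 0 of 6 members against T73 in each group. The share of all ORFs called by limma at 12 °C was 0% for Lalvin W27 and 0.551% for VIN7. At 28 °C it was 0.0324% for Lalvin W27 and 0.0162% for VIN7. Before adjustment, 2 of 6 members (FLO1 and FLO9) were under the limma threshold of 0.05 in Lalvin W27 at 12 °C, as were 14.7% of ORFs, and 0 of 6 were in the other 3 groups, where 21% (VIN7 at 12 °C), 10% (Lalvin W27 at 28 °C) and 13.9% (VIN7 at 28 °C) of ORFs were. The labels call the arrays biological replicates, while the methods name 2 independent fermentations and 3 hybridizations. Arrays of 1 group may therefore share a fermentation, and the SDs and p-values given here with n = 3 measure the spread between arrays, which may in part be technical.

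The hybrids were then compared with each other within a temperature, where both had T73 at that temperature as reference. At 12 °C the mean log2 ratios of FLO1 and FLO9 were lower in VIN7 than in Lalvin W27, and the intervals of both differences held 0. The difference for FLO9 was -1.78 ± 0.92 (SE), with a 95% interval of -3.76 to 0.21 by limma. That for FLO1 was -1.49 ± 1.10 (SE), with an interval of -3.87 to 0.88, and rests on 2 VIN7 arrays. FLO5 (-0.69), FLO10 (-0.37) and FLO8 (-0.31) were also lower in VIN7 and FLO11 (0.77) higher, and the limma adjusted p was 1.00 for all 6.

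At 28 °C the VIN7 ratios of FLO1 lay below every Lalvin W27 ratio, the highest VIN7 value being -0.57 and the lowest of Lalvin W27 -0.45. The difference was -2.23 ± 0.98 (SE), with a 95% interval of -4.35 to -0.10, an unadjusted p of 0.0412 and an adjusted p of 0.546 by limma. With array C of VIN7 turned it was -0.48, and the groups overlapped. Without array C of Lalvin W27, where FLO1 had 3.24, it was -1.04 ± 0.84 (SE), with an adjusted p of 0.717 by limma. The differences of the other members were -0.50 (FLO5), -0.27 (FLO9), -0.18 (FLO10), 0.04 (FLO11) and -1.02 (FLO8), and the intervals of all 5 held 0. FLO8 had the largest of these, with a 95% interval of -2.60 to 0.56.

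**Figure D2:**
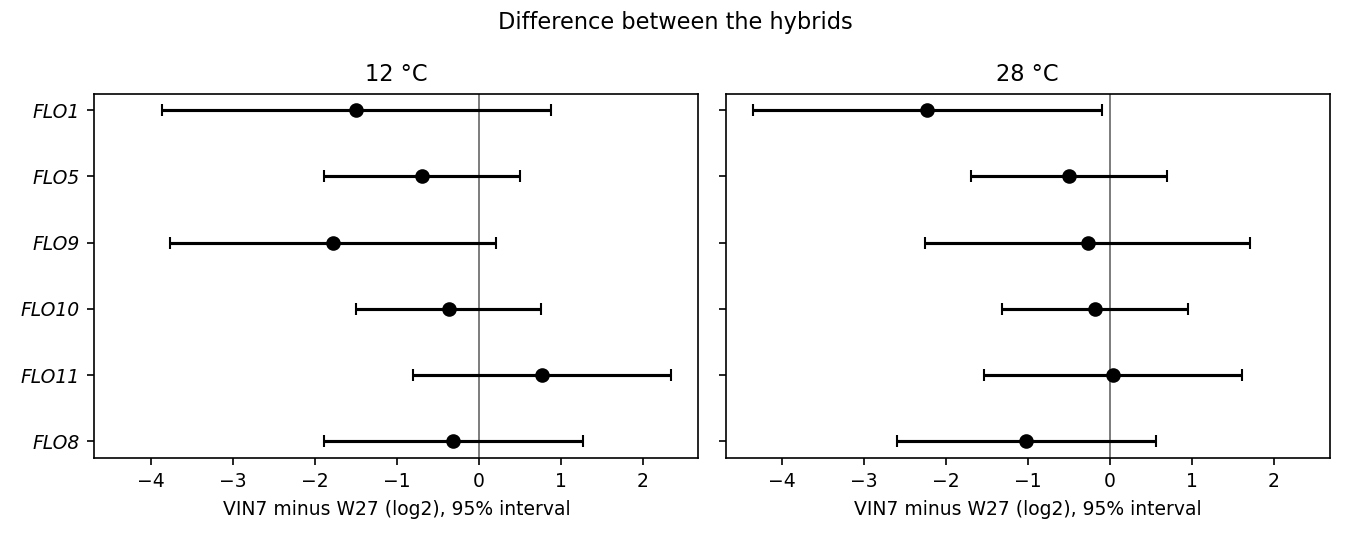
Difference of the mean log2 ratios, VIN7 minus Lalvin W27 (x axis), with the 95% interval of limma for each gene (y axis) at 12 °C and at 28 °C. Of the 12 intervals, that of FLO1 at 28 °C, -4.35 to -0.10, is the one that leaves out 0.

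Beside the 1 of 6 members that passed the unadjusted p at 28 °C stood 9.02% of ORFs, and 0 of 6 passed at 12 °C, where 2.22% of ORFs did. At 28 °C, VIN7 arrays lay above all Lalvin W27 arrays for 7.84% of ORFs and 0 members, and below them for 6.83% of ORFs and 1 member. At 12 °C these shares were 3.65 and 2.55%, with 0 members in either direction. The limma call at an adjusted p under 0.05 was 0 of 6 members and 0% of ORFs at both temperatures.

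Between temperatures the reference RNA differed, since T73 was fermented at 12 °C for one set and at 28 °C for the other, so a difference can come from either strain. In Lalvin W27 the arrays of FLO9 and FLO10 at 12 °C all lay above those at 28 °C, 2 of 6 members where 4.94% of ORFs did so, and 0 members lay below, where 10% did. The difference was 1.16 ± 0.92 (SE) for FLO9 and 0.76 ± 0.53 (SE) for FLO10, with adjusted p of 0.803 and 0.776 by limma. FLO1 differed by 1.17 ± 0.98 (SE) with overlapping arrays, and by 0.51 without array B and 2.36 without array C at 28 °C. In VIN7, 0 members lay apart in either direction, beside 8.92 and 12.1% of ORFs, and FLO1 differed by 1.90 ± 1.10 (SE). That value rests on 2 arrays of opposite sign at 12 °C, being 0.77 without array A and 3.03 without array C there. With array C at 28 °C turned the FLO1 difference was 0.15. In that setting the 12 °C arrays of VIN7 lay above those at 28 °C for 1 member (FLO11) and 2.61% of ORFs. They lay below for 0 members and 4.73% of ORFs. Limma at an adjusted p under 0.05 called 0 of 6 members and 0% of ORFs for both hybrids. The test of whether the hybrids' difference changed with temperature also called 0 members and 0% of ORFs, with differences from -0.74 to 1.51 and adjusted p from 0.925 to 0.974 by limma.

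Over the 12 arrays FLO8 and FLO11 ran opposite to each other. On arrays where FLO8 was over 0.8 (array B of both groups of Lalvin W27 and of VIN7 at 28 °C), FLO11 lay between -1.78 and -1.07, and on array C of VIN7 at 28 °C, where FLO8 was lowest, FLO11 was highest. Pearson's r was -0.82 and Spearman's rho -0.83 (n = 12), and r was -0.74 without that array, -0.68 with its sign turned, -0.79 without the 2 arrays farthest from the median of FLO8 and -0.93 on deviations from the group means. FLO8 and FLO9 had r = 0.67 (rho 0.53), which fell to 0.42 without array C of VIN7 at 28 °C. FLO9 and FLO11 had r = -0.75 (rho -0.72, n = 12), and r = -0.53 without the 2 arrays farthest from the median of FLO11. These are descriptions of 3 of the 15 pairs among the members, chosen after their values were seen. The arrays share the T73 reference, and those with a wide spread weigh most in r.

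**Figure D3:**
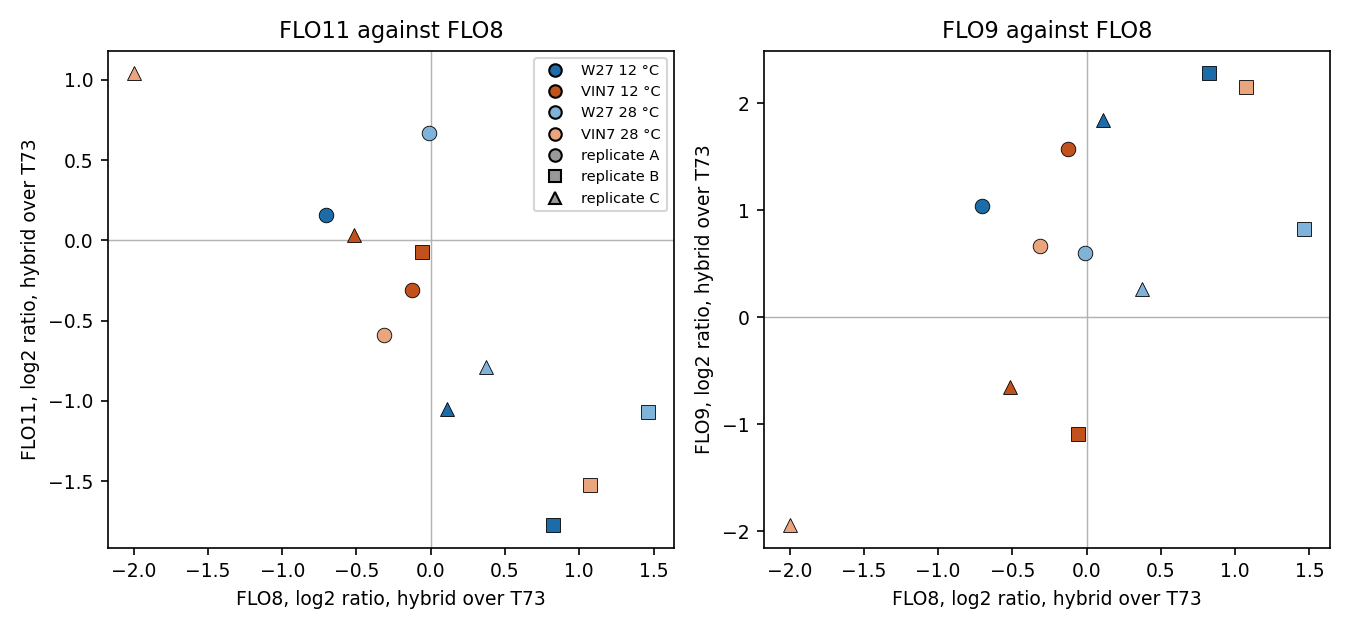
Log2 ratio of hybrid over T73 of FLO11 (left, y axis) and FLO9 (right, y axis) against that of FLO8 (x axis), with 1 point per array, coloured by group and shaped by replicate. FLO11 is lower where FLO8 is higher (r = -0.82, n = 12), and FLO9 tends upwards (r = 0.67), with array C of VIN7 at 28 °C at the left edge of both.

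For each member the ORFs with the most similar pattern over the arrays were looked for by Pearson's r. For FLO1 (11 arrays, 5592 ORFs compared) these were YAR047C (0.94), YJL182C (0.94) and YHR093W (0.93). YAR047C lies on chromosome I, as FLO1 does, and is among the 10 ORFs nearest to it by systematic name. For the other members 12 arrays and 5550 ORFs were compared. FLO5 was most like YLR001C (0.89), YPL074W (0.85) and YOR317W (0.82), and FLO9 most like YDR428C (0.95), YDR453C (0.87) and YAL039C (0.87). FLO10 was most like YER160C (0.86), YJR105W (0.85) and YMR305C (0.85), FLO11 most like YCR031C (0.87), YOR157C (0.85) and YBR185C (0.82), and FLO8 most like YGL016W (0.95), YLL033W (0.91) and YHR153C (0.89). None of them was a member of the family. With array C of VIN7 at 28 °C turned, the ORF in first place stayed the same for FLO9 and FLO8 and was another one for FLO1, FLO5, FLO10 and FLO11.

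FLO1, FLO5, FLO9 and FLO10 lie near chromosome ends, where gene number often differs between strains, and the ORFs next to the members were looked at too. In Lalvin W27 at 12 °C the 10 ORFs nearest to FLO1 by name had a median of 1.14 over their medians, and 5 of them were past 2-fold above T73. Those of FLO9 had a median of 0.78 with 3 past 2-fold above and 1 below. Over all ORFs the median was -0.06, with 10.6% past 2-fold above and 11.2% below. Around FLO11, which had a median of -1.05, the neighbours had 0.26, and none was past 2-fold in either direction. The neighbours of FLO5 had -0.21, with 1 past 2-fold above and 3 below, beside 0.65 for FLO5, and those of FLO10 had 0.11 beside 0.26 for FLO10. For VIN7 at 12 °C the neighbours of FLO1 had a median of 0.78 that spans opposite values, with 4 past 2-fold above and 3 below and a range of -8.05 to 2.85. Those of FLO9 had 0.80, with 2 above and 1 below among the 8 with a value. Of all ORFs, 13.9% were above and 11.9% below in that group. At 28 °C the neighbours of FLO1 had 0.79 in Lalvin W27 and 0.04 in VIN7, both above the median of FLO1 itself (-0.21 and -0.91). Some neighbours are themselves sequences related to the family: YAR061W and YAR062W for FLO1, YAL065C for FLO9 and YHR213W for FLO5. They may share signal with the members. What part gene number had in these ratios was not tested.

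**Figure D4:**
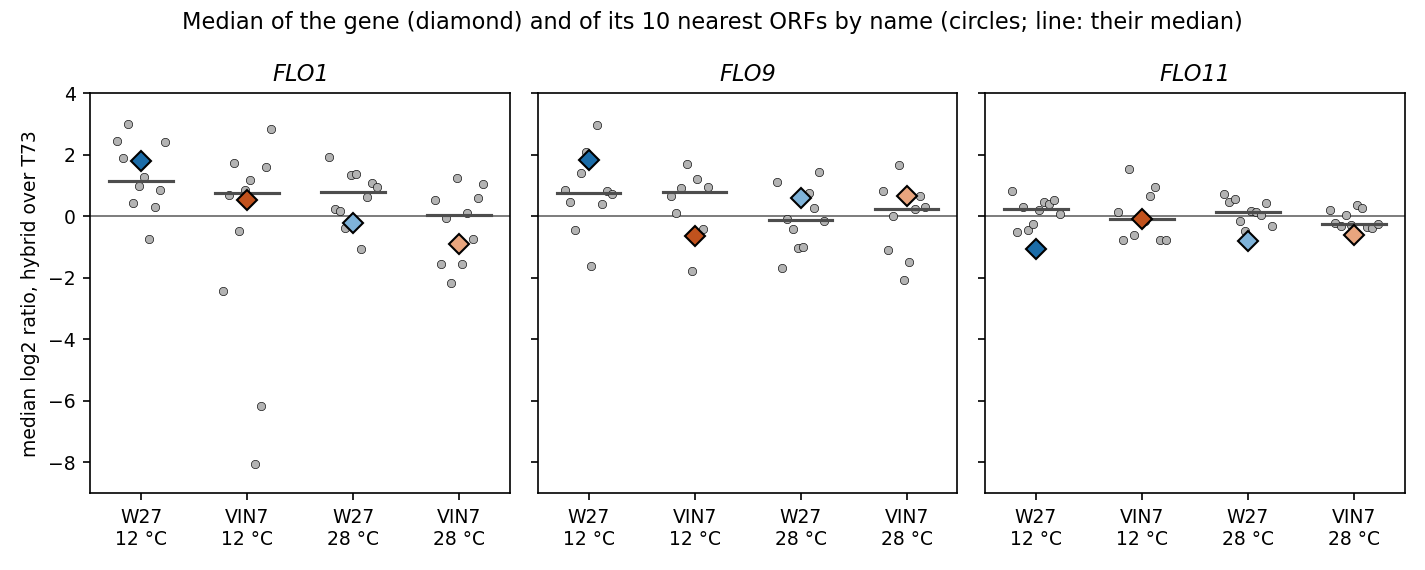
Median log2 ratio of hybrid over T73 (y axis) of FLO1, FLO9 and FLO11 (diamonds) and of the 10 ORFs nearest to each by systematic name (circles, with a line at their median) in each group (x axis). In Lalvin W27 at 12 °C the neighbours of FLO1 and FLO9 have medians of 1.14 and 0.78, and those of FLO11 have 0.26.

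Sequences and ORFs related to the family were listed as well, 7 in all, of which 6 had values. In Lalvin W27 at 12 °C the medians of 3 of the 6 were past 2-fold above T73, beside 10.6% of all ORFs. These were YAL065C (1.40), YHR213W (1.08) and YNR044W (1.36), each with the same sign on all arrays. YCR089W gave 3.55, 2.42 and 1.21 in VIN7 at 12 °C, 3.35, 3.24 and 1.04 in Lalvin W27 at 28 °C, and 1.89, 4.27 and 0.19 in VIN7 at 28 °C. It was above 0 on every array and past 2-fold by median in these 3 groups, with limma adjusted p of 0.131, 0.320 and 0.252. YAR062W had a median of 1.59 in VIN7 at 12 °C and YNR044W one of -1.19 in VIN7 at 28 °C, both with 1 sign on all arrays. With array C turned, YCR089W and YNR044W had mixed signs in VIN7 at 28 °C. YHR213W then gave 0.60, 1.74 and 1.40 there, past 2-fold by median with 1 sign on all arrays. YAR061W fell in VIN7 at 12 °C, the only call of limma on this list (adjusted p = 0.0448), on 2 arrays with values of -8.65 and -3.66 and none on array A. Of all ORFs, limma called 0.551% in that group.

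A list of 32 ORFs for other regulators of the FLO genes (6 for transcription activators, 8 for the cAMP-PKA pathway, 8 for the MAP kinase pathway of filamentous growth, 9 for repressors and 1 other regulator) was all on the array. At 12 °C the medians of 5 were past 2-fold above T73 and of 3 below in Lalvin W27, and of 4 above and 5 below in VIN7. At 28 °C the counts were 2 above and 1 below in Lalvin W27 and 4 above and 2 below in VIN7 (3 and 2 with array C turned). Of all ORFs, 10.6% were above and 11.2% below in Lalvin W27 and 13.9 and 11.9% in VIN7 at 12 °C, and 7.76 and 6.08% in Lalvin W27 and 11.3 and 5.48% in VIN7 at 28 °C. The median of the list was 0.00, 0.06, -0.14 and 0.09 in the order Lalvin W27 and VIN7 at 12 °C, then both at 28 °C, beside -0.06, 0.00, 0.08 and 0.10 for all ORFs. Limma called 0 of the 32 in each group after adjustment, and 9, 8, 2 and 5 had an unadjusted p under 0.05, beside 14.7, 21, 10 and 13.9% of all ORFs.

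Of the 8 ORFs of the cAMP-PKA pathway, in which Flo8 acts, 6 were lower than in T73 on all 3 arrays of Lalvin W27 at 12 °C, where 25.1% of ORFs were, and the median over the 8 was -0.70. The same count was 3 of 8 in VIN7 at 12 °C, beside 21.8% of ORFs. At 28 °C it was 4 of 8 in Lalvin W27, beside 14.6%. Of the 7 with 3 values in VIN7 at 28 °C, 0 were lower on all arrays and 3 higher, beside 13.3 and 19.9% of ORFs. The median over the 8 was 0.24 there with array C as deposited. With array C turned, YER020W and YJL164C were lower on all 3 arrays, as were 12.5% of ORFs. The 3 that had been higher (YIL033C, YPL203W and YKL166C) then had mixed signs. Of the whole list of 32, those past 2-fold with 1 sign on all arrays at 12 °C in Lalvin W27 were YNL021W (median 2.72), YOR140W (2.08), YBR083W (2.01), YPL049C (1.30) and YGR014W (1.09) above T73 and YIL033C (-1.28), YJL164C (-1.24) and YER020W (-1.21) below it. For VIN7 at 12 °C these were YNL021W (2.10), YOR140W (1.72), YPL049C (1.34) and YBR112C (1.30) above and YDR477W (-1.67), YKL043W (-1.51) and YIL033C (-1.09) below. At 28 °C YKL043W had -1.01 in Lalvin W27 and 1.25 in VIN7, where YBR112C (1.20) was above and YGR014W (-1.09) below. With array C of VIN7 turned, these 3 ORFs had mixed signs in that group and YKL043W a median of 0.13. In that setting YER118C (median 1.12) and YER020W (-1.11) were past 2-fold with 1 sign on all arrays. With array C as deposited, limma called none of the ORFs named here after adjustment. The ORFs are given by systematic name because the files pair none of them with a function.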

How the data were processed

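Total RNA of a hybrid and of T73 was amplified, labelled and hybridized together. The authors read the spots in GenePix with a global background subtracted and normalized each array in Acuity. They then dropped spots not found and adjusted for print tips manually. The log2 ratios deposited by the authors, 1 per ORF and array, were used as they stand after turning the sign. Spot intensities did not enter the work, which leaves signal over background unknown. The 2 control rows, turned in the same way, ran from -1.97 to 1.16 (3XSSC) and from -1.50 to 2.50 (Arabidopsis) over the arrays. Controls thus passed 2-fold on some arrays. On arrays A, B and C of Lalvin W27 at 12 °C, 3XSSC gave -0.63, 0.795 and 1.10 and Arabidopsis -0.14, 0.65 and 2.50. What part background had in the ratios of the members was not tested. Precision is limited by the number of arrays. Groups came from the array titles. For Lalvin W27 at 28 °C the source field of the labels gives 12 °C, and the titles and descriptions, which give 28 °C, were followed.

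As in the study's methods, a median over at least 2 arrays past 2-fold was counted. Group means and their differences were tested with limma 3.58.1 (lmFit and eBayes, R 4.3.3) in 1 model of the 12 arrays and 4 groups, with Benjamini-Hochberg adjustment over all ORFs, after the code had been tested on simulated data. ORFs named beside the members were those of the lists past 2-fold with 1 sign on all arrays and the 3 ORFs most like each member. Members and lists were chosen with earlier results of these data known. No column of the table was left unmatched to an array, and no 2 arrays held the same values. Alternatives were centring and scaling of arrays, the mean in place of the median, thresholds of 1.5-fold and 4-fold, array C of VIN7 at 28 °C turned, extreme values set to quantiles, a robust prior in limma, a fit of only the arrays compared, the replicate letter as a block and leaving out each array.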

Additional observations from a re-analysis of the deposited data

Results flagged for a closer look

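FLO10 in Lalvin W27 had a different sign at each temperature on every array, above T73 on 3 of 3 arrays at 12 °C and below it on 3 of 3 at 28 °C. Array A at 12 °C (0.03) and array B at 28 °C (-0.04) lay close to 0. The 12 °C arrays of Lalvin W27 lay above all of those at 28 °C for 4.94% of ORFs, with or without a change of sign. The share of ORFs with opposite signs on every array was not counted. The log2 difference between the temperatures was 0.76 ± 0.53 (SE), with a limma adjusted p of 0.776 and different T73 RNA as reference at each temperature.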

How the results depend on the processing

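Of 398 alternative values for 40 single results, 370 kept their direction and side of the threshold, and 28, in 16 results, turned sign. Limma called a member in 0 of 95 combinations of a comparison and an alternative setting. The lowest adjusted p of an alternative was 0.0837 (FLO1 and FLO9 in Lalvin W27 at 12 °C, fit of only the arrays compared), and the highest was 1.00. The letters did not pair the arrays (correlations of deviations from -0.40 to 0.06), and with the replicate block FLO1 in Lalvin W27 at 12 °C was 2.02 with an adjusted p of 0.416. Members past 2-fold, 3 in Lalvin W27 at 12 °C, were 0 at 4-fold. In VIN7 at 12 °C, where none was, there was 1 at 1.5-fold. In Lalvin W27 at 28 °C the 1 became 0 by the mean, at 4-fold and with centred arrays, 2 with scaled arrays, 3 at 1.5-fold, and 0 (without C) to 2 (without B) with an array left out. In VIN7 at 28 °C the 0 became 1 by the mean and with centred arrays, 3 at 1.5-fold, with scaled arrays and with array C turned, and 1 (without A) to 2 (without B or C). Only for array C turned are counts over all ORFs given above, so the other alternative counts have none beside them. Centring left 1 of the 3 regulators past 2-fold in Lalvin W27 at 28 °C.

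Turning array C of VIN7 at 28 °C gave means of 0.38 (FLO1) and 0.92 (FLO8) and differences between the hybrids at 28 °C of 1.02 (FLO9), 0.14 (FLO10), -0.66 (FLO11) and 0.31 (FLO8), each of the other sign. Scaling turned FLO8 in Lalvin W27 at 12 °C to -0.11, FLO5 in VIN7 to 0.079 at 12 °C and -0.025 at 28 °C (-0.076 when centred), and the difference of FLO11 at 28 °C to -0.10 (-0.0015 when centred). Leaving out an array turned FLO8 in Lalvin W27 at 12 °C (-0.30 without B to 0.47 without A) and FLO1 in Lalvin W27 at 28 °C (-0.33 without C to 1.51 without B). In VIN7 at 12 °C it turned FLO1 (-0.60 without A to 1.66 without C), FLO5 (-0.40 without C to 0.15 without B), FLO9 (-0.87 without A to 0.46 without B) and FLO10 (-0.24 without A to 0.38 without B). In VIN7 at 28 °C it turned FLO9 (-0.64 without B to 1.41 without C), FLO11 (-1.06 without C to 0.22 without B) and FLO8 (-1.16 without B to 0.38 without C). Of the differences between hybrids it turned FLO8 at 12 °C (-0.70 without A of Lalvin W27 to 0.064 without B) and, at 28 °C with a VIN7 array left out, FLO9 (-1.20 without B to 0.85 without C), FLO10 (-0.38 without A to 0.027 without B) and FLO11 (-0.66 without C to 0.62 without B). The cause was not tested. In Lalvin W27 at 12 °C the signs of FLO1, FLO5, FLO9, FLO10 and FLO11 held under every alternative run.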
